A study of Mus musculus with 2 samples.

Results

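10 rows of the gene table were followed across single mouse microglia: Trp53, the gene of the transcription factor p53, and 9 genes that p53 is known to induce, namely Ccng1, Mdm2, Phlda3, Trp53inp1, Zmat3, Eda2r, Aen, Sesn2 and Fas. The members were the rows whose name matched this list, and all 10 were found among the 32285 genes measured. Their raw UMIs (unique molecular identifiers, 1 per captured transcript) were summed per hashtag, per cell state, and in cells with and without a UMI of Cdkn1a, the best known p53 target, which is not itself a member. The cells were CD11b+ CD45+ Ly6G- CD206- cells sorted from perfused brains of mice aged 12 weeks, all with 1 copy of the Cx3cr1CreERT2(Litt) allele, in which a tamoxifen-inducible Cre recombinase is made from the Cx3cr1 locus of microglia and related macrophages. One group of mice received tamoxifen (TAM) for 4 weeks and the other oil. Oligonucleotide-tagged antibodies (hashtags) marked the cells before they were pooled into 1 droplet library, with 5 hashtags named Oil1 to Oil5 and 5 named TAM1 to TAM5. Nothing in the labels ties a hashtag to a mouse of its own. The p-values therefore reflect only the variation among these hashtags, part of which may be technical. Both groups carry the allele, and mice without it were not analysed here, so an effect of tamoxifen itself and an effect of activated CreERT2 cannot be told apart.

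p53 is kept at low levels in unstressed cells because MDM2, itself made from a p53 target gene, marks it for degradation. DNA damage and other stresses interrupt this loop, mostly at the level of the protein rather than of Trp53 transcription, and p53 then binds paired half-sites near its target genes and raises their transcription. The targets act in several ways: Cdkn1a (p21) halts the cell cycle, Mdm2 and Ccng1 (cyclin G1) restrain p53 in turn, Phlda3 restrains the kinase AKT, Sesn2 (sestrin 2) restrains mTORC1 growth signalling, and Zmat3 encodes an RNA-binding protein. Trp53inp1 encodes a nuclear protein of the stress response that also acts in autophagy, and Aen encodes a nuclease that takes part in apoptosis. Fas and Eda2r encode receptors of the TNF receptor family.

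The promoters show which members hold letters that p53 is known to read. Windows of 300 bases, from 250 before to 50 after each RefSeq start (GRCm38.p6), were found for 8 of the 10 members, and those of Trp53inp1 and Zmat3 were not in the table. The p53 half-site consensus runs over 10 bases: 3 purines, C, 2 bases that are A or T, G and 3 pyrimidines. It reads the same on both strands. An exact half-site lay in the windows of Ccng1, Mdm2, Aen and Trp53, 4 of 8 members, and in 8.36% of all 32851 windows. A full site, 2 half-sites at most 13 bases apart with at most 1 mismatch outside the central C and G, lay in the window of Ccng1 alone among the members, in that of Cdkn1a, and in 0.627% of all windows. The sites are shown in capitals, with the flanking bases in lower case, so that the full sites of Ccng1 and Cdkn1a can be set beside the single half-sites. Phlda3, whose values between treatments and by Cdkn1a status are given below, has neither in its window. A match is a string of letters and not a measured binding site, and its absence from a window says only that these letters are not there.
Ccng1: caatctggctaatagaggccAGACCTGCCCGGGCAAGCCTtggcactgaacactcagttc
Cdkn1a: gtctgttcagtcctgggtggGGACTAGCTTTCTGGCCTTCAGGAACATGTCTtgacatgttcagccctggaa
Mdm2: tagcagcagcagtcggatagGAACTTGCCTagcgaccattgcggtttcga
Trp53: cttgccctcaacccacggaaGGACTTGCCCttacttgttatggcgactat
Aen: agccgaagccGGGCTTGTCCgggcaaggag
The Ccng1 line is chr11:40755442-40755501 on the minus strand, and its site of 20 bases has 1 mismatch, no gap between the half-sites, and runs from -195 to -176 relative to the start. The Cdkn1a line is chr17:29090886-29090957 on the plus strand, and its site of 32 bases has no mismatch, a gap of 12 and runs from -73 to -42. The Mdm2 line is chr10:117710915-117710964 on the minus strand with its half-site from -186 to -177, and the Trp53 line is chr11:69580264-69580313 on the plus strand with its half-site from -75 to -66. The Aen line is chr7:78895927-78895956 on the plus strand; its half-site runs from -121 to -112 of one annotated start and from 11 to 20 downstream of another. In the GENCODE M21 annotation every member is protein coding, on chromosome 11 (Ccng1 and Trp53), 10 (Mdm2), 1 (Phlda3), 4 (Trp53inp1 and Sesn2), 3 (Zmat3), X (Eda2r), 7 (Aen) or 19 (Fas). Sesn2 overlaps Gm12981 on the same strand, which is also in the gene table, and Fas overlaps Gm27818 on the same strand, so their counts are less certain than those of the others.

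The 7528 microglia-like cells held 38881288 UMIs, with 583 to 899 cells and median depths of 4904 to 5099 UMIs per cell in the 10 hashtags. All 14 microglial markers were detected in at least 25% of the cells of each of the 6 microglia-like clusters, and the monocyte, neutrophil and CNS-associated macrophage lists had 0 such markers in each. The B cell list had 1 such marker in each, and the oligodendrocyte list had 1 in the dividing cluster. Some features moved with treatment. The mean log2 CPM (counts per 1000000 UMIs) of 23 immediate early genes, which respond within minutes to cell stress, was 4.63 to 6.52 in oil and 3.67 to 4.71 in TAM hashtags, with the highest values in Oil1, Oil2 and Oil3. The cluster led by these genes (cluster 2) held 70 to 450 cells of each oil and 3 to 50 of each TAM hashtag. The dividing cluster, led by Mki67 and Top2a, held 12 oil and 69 TAM cells. Sex, read from Xist and Y-linked genes because the labels do not give it, was male for Oil1, Oil2, TAM1 and TAM2 and female for the other 6 hashtags.

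The members' depth differed widely. Trp53 had 3254 UMIs, Mdm2 2781, Ccng1 1093, Trp53inp1 1052, Aen 580, Zmat3 333 and Sesn2 256. Phlda3 had 102 UMIs, Fas 73 and Eda2r 12, and these 3 did not pass the low-count filter in the comparisons of treatments or of Cdkn1a status, so 7 of the 10 members were tested there. A difference in Eda2r or Fas was mostly not detectable at this depth.

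Dividing microglia had the highest levels of most p53 targets. In the 81 dividing cells, Phlda3 reached 64.4 CPM (exact 95% Poisson interval 45.8 to 88.0, counting error only) against 1.65 CPM in the 7447 other cells. Ccng1 was at 87.5 CPM (65.6 to 114) against 27.2, and Aen at 54.5 CPM (37.5 to 76.5) against 14.3. For Zmat3 the levels were 28.1 CPM (16.4 to 44.9) and 8.26, for Mdm2 152 CPM (122 to 186) and 70.3, for Trp53inp1 59.4 CPM (41.6 to 82.3) and 26.5, and for Sesn2 18.2 CPM (9.07 to 32.5) and 6.40. Trp53 itself was at 80.9 CPM (59.9 to 107) in dividing cells, an interval that held the 83.7 CPM of the other cells. Fas, at 3.30 CPM (0.400 to 11.9) from 2 UMIs, and Eda2r, at 4.95 CPM (1.02 to 14.5) from 3 UMIs of 1 cell, were too sparse to place. Cdkn1a was at 831 CPM in dividing cells against 37.0 in the others, and 63 of the 81 dividing cells held a Cdkn1a UMI. These intervals cover cells summed over hashtags, most of them from 3 female TAM hashtags (21, 19 and 18 cells of TAM3, TAM4 and TAM5), and no test across hashtags was made of the state.

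**Figure D1:**
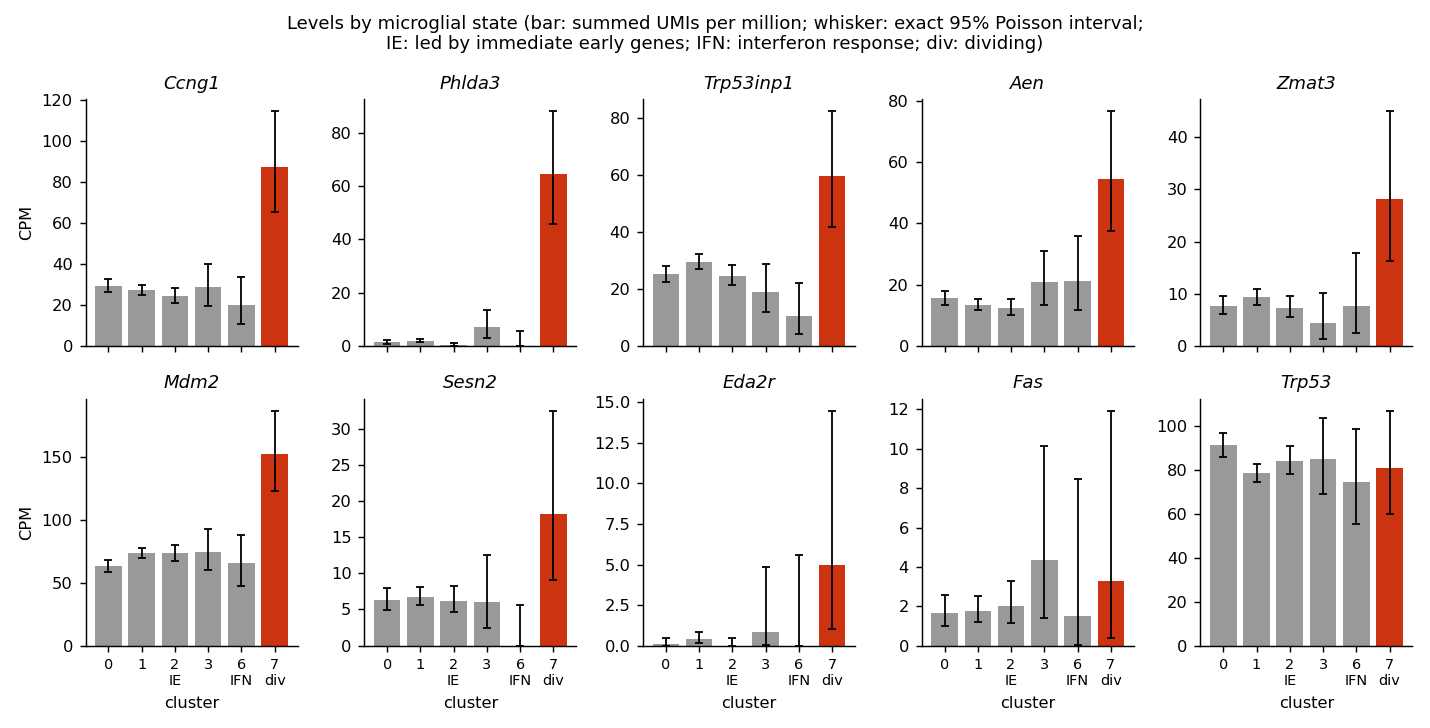
Summed CPM of each gene (y axis) in the 6 microglia-like clusters (x axis), with exact 95% Poisson intervals; cluster 2 is led by immediate early genes, cluster 6 by interferon-response genes and cluster 7, in red, is dividing. In cluster 7 the bars of Ccng1, Phlda3, Trp53inp1, Aen, Zmat3, Mdm2 and Sesn2 stand above those of the other clusters, and that of Trp53 does not.

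Among the 5 other states Mdm2, Trp53 and Ccng1 varied little. Mdm2 ranged from 63.1 to 74.6 CPM, Trp53 from 74.6 to 91.3 CPM and Ccng1 from 19.8 to 29.3 CPM. Phlda3 was higher in cluster 3, led by Spp1, Lgals3 and Lpl, than in the others, at 6.94 CPM (3.0 to 13.7) from 8 UMIs in 192 cells. Cdkn1a was also highest there among non-dividing states, at 107 CPM. Trp53inp1 varied more, from 10.7 CPM (4.28 to 22.0) in the interferon-response state to 29.5 CPM (27.0 to 32.2) in cluster 1. The lower value rested on 7 UMIs in 126 cells. Fas ranged from 1.52 to 4.34 CPM and Sesn2 from 0 to 6.79 CPM.

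Cells that held a Cdkn1a UMI held more of several other p53 targets. Of the 7528 cells, 668 (8.87%) were Cdkn1a-positive, and within each hashtag their sum was compared with that of the remaining cells in an edgeR quasi-likelihood fit with the hashtag as a block. 4 of the 7 members tested rose in positive cells, against a background of 2.82% of all genes tested that were higher. The members, and the further p53 genes given below, were chosen with earlier results of these data known. Counts set against such a background are therefore not independent tests. The median log2 difference of the 7 members was 0.91, and that of all 9975 genes tested was -0.00145. No member fell. In oil hashtags alone, with 205 positive cells, 0 of these 4 passed: the log2 differences were 1.02 for Ccng1, 0.56 for Trp53inp1, 0.64 for Aen and 0.19 for Mdm2 (edgeR adjusted p 0.0658, 0.735, 0.826 and 0.899).

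Ccng1 ranged over the 10 hashtags from 21.2 to 78.5 CPM in positive cells (median 57.6) and from 20.9 to 34.1 CPM in negative cells (median 24.0). It was higher in the positive cells of 10 of 10 hashtags, and in Oil3 by little (21.2 against 20.9 CPM). The log2 difference was 1.18 ± 0.15 (SE), with a Benjamini-Hochberg adjusted p of 3.93e-09 from edgeR. Trp53inp1 lay between 19.7 and 85.8 CPM in positive cells (median 38.0) and between 18.6 and 28.4 CPM in negative cells (median 25.3). It was higher in 8 of 10 hashtags, all but Oil5 and TAM1, by 1.06 ± 0.16 (SE) on the log2 scale (edgeR adjusted p 5.59e-07).

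Aen, the apoptotic nuclease, spanned 9.07 to 35.1 CPM in positive cells (median 28.5) and 10.9 to 17.1 CPM in negative cells (median 13.6). It was higher in 8 of 10 hashtags, and the log2 difference was 0.95 ± 0.19 (SE; edgeR adjusted p 4.28e-04). Mdm2, the negative regulator of p53, spanned 62.4 to 119 CPM in positive cells (median 78.3) and 64.0 to 80.3 CPM in negative cells (median 69.7). Its difference was smaller, 0.48 ± 0.10 (SE) on the log2 scale, in 9 of 10 hashtags (edgeR adjusted p 8.93e-04).

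The other members tested did not pass the threshold. Sesn2 differed by 0.91 ± 0.30 (SE; edgeR adjusted p 0.0642) and was higher in positive cells of 9 of 10 hashtags. Zmat3 differed by 0.57 ± 0.30 (SE; edgeR adjusted p 0.377) and was higher in 6 of 10. Trp53 differed by 0.05 ± 0.10 (SE; edgeR adjusted p 0.909), with values of 66.4 to 111 CPM in positive and 76.3 to 98.6 CPM in negative cells. The sums of positive cells rested on 29 to 151 cells per hashtag.

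The largest log2 difference among the members was that of Phlda3. Of its 102 UMIs, 93 lay in Cdkn1a-positive cells, and of the 70 cells with a Phlda3 UMI 61 (87.1%, exact 95% binomial interval 77.0 to 93.9) also held Cdkn1a, against 8.87% of all cells. Positive cells had 3.97 to 53.3 CPM over the hashtags (median 15.5), and negative cells 0 to 0.630 CPM (median 0.279), so the ranges did not overlap. The share of all genes whose ranges did not overlap by Cdkn1a status was not counted. In the fit without a low-count filter the log2 difference was 5.74 ± 0.46 (SE; edgeR adjusted p 1.4e-32), where 2.33% of all genes were higher. Eda2r and Fas did not pass in that fit (edgeR adjusted p 0.222 and 0.905). No cell type that should lack these genes was named among the clusters, so the share that free RNA alone would give was not measured.

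**Figure D2:**
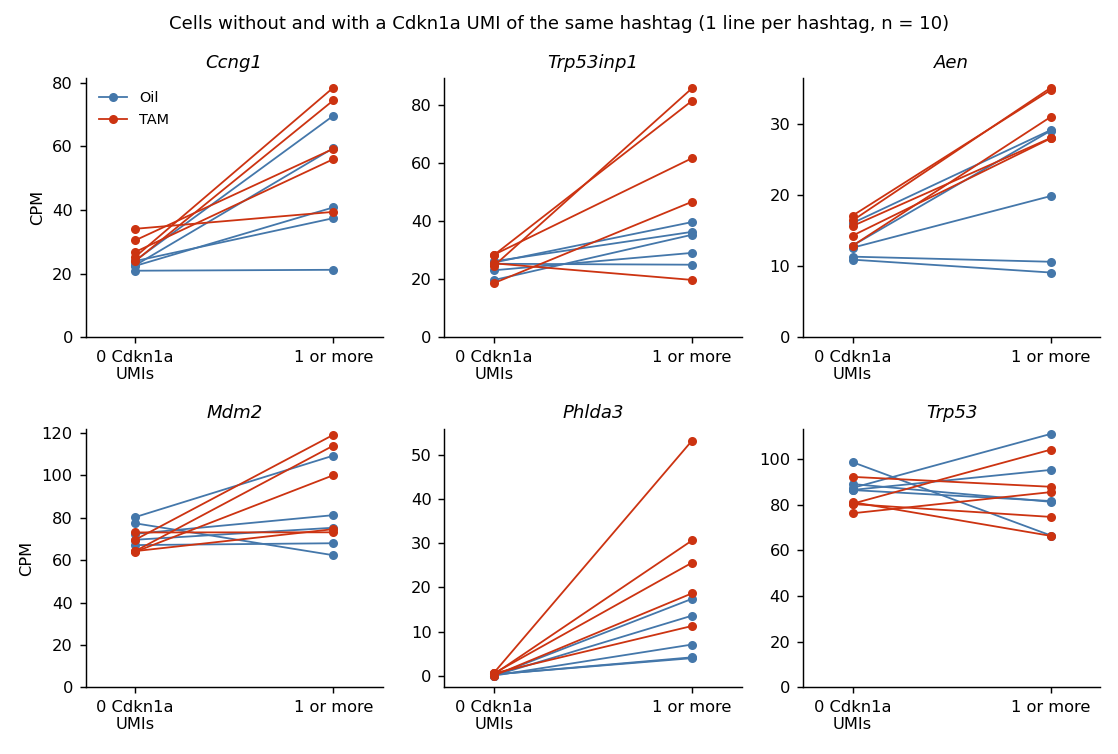
CPM (y axis) in cells without and with a Cdkn1a UMI (x axis); each line joins the 2 sums of 1 hashtag, blue for oil and red for TAM (n = 10). Lines of Ccng1 and Phlda3 rise in all 10 hashtags, those of Trp53inp1, Aen and Mdm2 in 8 or 9, and those of Trp53 in 4.

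Positive cells were about as deep as negative cells, with hashtag medians of 4803 to 5893 and 4886 to 5084 UMIs, but they held a larger share of dividing cells, 0 to 15.9% against 0 to 0.631%. Without the dividing state, 2 of the 7 members tested still rose, against 0.722% of all genes. Ccng1 differed by 1.08 ± 0.16 (SE; edgeR adjusted p 1.09e-06) and Trp53inp1 by 1.08 ± 0.16 (SE; edgeR adjusted p 2.26e-06). Aen, at 0.79 ± 0.22 (SE; edgeR adjusted p 0.0520), and Mdm2, at 0.34 ± 0.11 (SE; edgeR adjusted p 0.172), no longer passed. Phlda3 again differed in the fit without a filter, by 5.96 ± 0.54 (SE; edgeR adjusted p 7.15e-25), with 0.42% of all genes higher there; in those cells 42 of the 47 with a Phlda3 UMI held Cdkn1a. When each cell was thinned to 2000 UMIs and its Cdkn1a status read again, Ccng1, Trp53inp1 and Mdm2 passed and Aen did not (log2 difference 0.77, edgeR adjusted p 0.561).

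Several members were higher the more Cdkn1a UMIs a cell held. In non-dividing cells with 0, 1, 2 to 4, and 5 or more Cdkn1a UMIs, of which there were 6842, 349, 168 and 88, Ccng1 was at 24.6, 35.3, 71.8 and 99.3 CPM. Trp53inp1 was at 23.8, 38.1, 59.4 and 122 CPM, and Aen at 13.3, 17.9, 25.8 and 49.7 CPM. Each of these genes was thus higher in every successive class.

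Phlda3 was at 0.143 and 1.09 CPM below 2 Cdkn1a UMIs, and at 28.0 and 64.1 CPM above. Mdm2 was at 68.5, 71.8, 89.7 and 155 CPM, and Zmat3 at 8.01, 7.07, 7.85 and 31.0 CPM, so that Zmat3 was high only in the last class. Sesn2 went from 6.02 to 20.7 CPM (9.92 to 38.1). Fas, at 1.80 to 3.37 CPM, and Trp53, at 83.5, 86.5, 93.1 and 76.6 CPM, had overlapping intervals in all 4 classes. The classes pool hashtags, and 76 of the 88 cells of the last class were from TAM hashtags, so these levels are a description with counting error only.

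**Figure D3:**
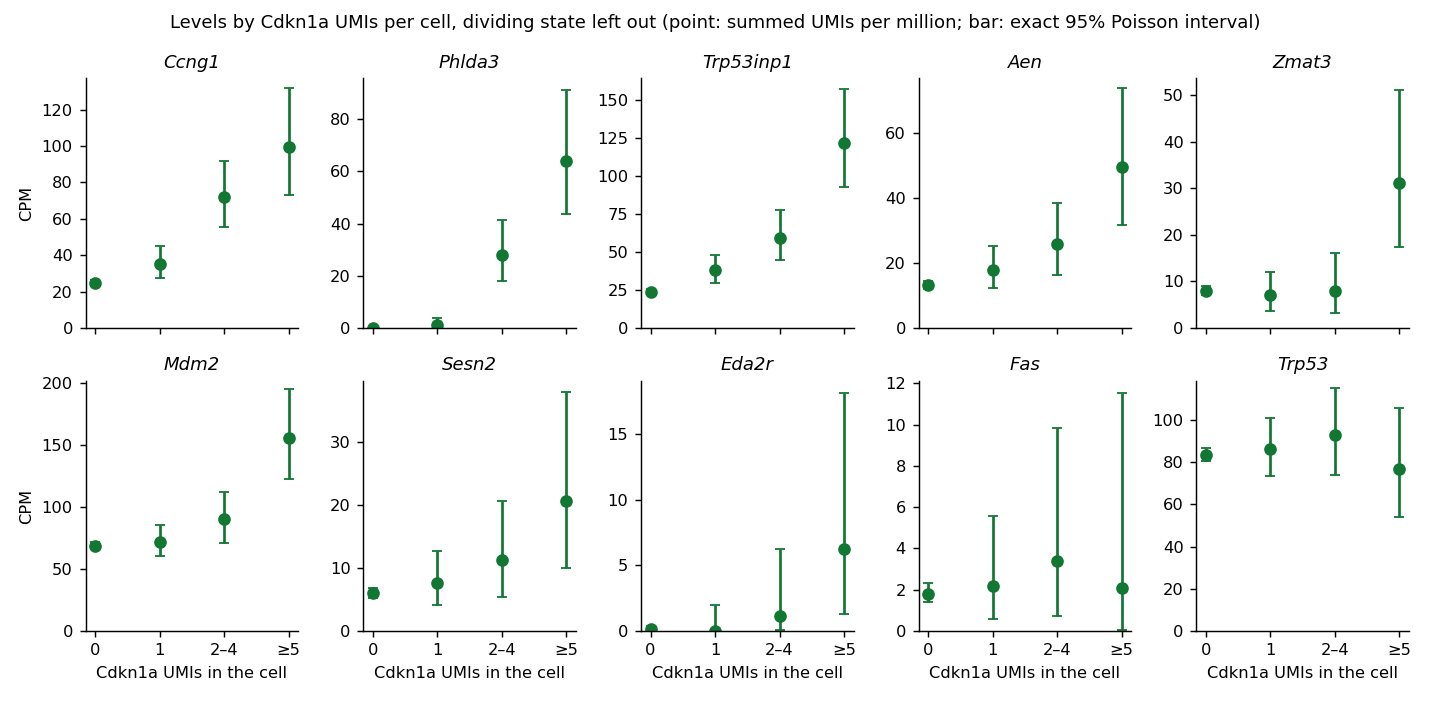
CPM (y axis) of each member in non-dividing cells grouped by their number of Cdkn1a UMIs (x axis), with exact 95% Poisson intervals. Ccng1, Phlda3, Trp53inp1, Aen and Mdm2 are highest in cells with 5 or more Cdkn1a UMIs, and the intervals of Trp53 and Fas overlap throughout.

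Pooled over hashtags, Cdkn1a-positive cells also held UMIs of more members per cell than negative cells. Whether members occurred in the same cell more often than their separate levels give was not tested. After thinning to 2000 UMIs, Cdkn1a status was read again, so a cell that lost its Cdkn1a UMIs counts as negative. Then 47.3% of 391 Cdkn1a-positive cells (exact 95% binomial interval 42.3 to 52.4) held a UMI of at least 1 member other than Trp53. In 7053 negative cells the share was 25.6% (24.6 to 26.7). At least 2 of the members other than Trp53 were found in 14.1% (10.8 to 17.9) and 2.76% (2.39 to 3.17) of these cells. Unthinned, the shares with at least 1 were 68.9% and 50.3%. By hashtag, the thinned share with at least 1 was 40.5% to 58.3% in the positive cells of TAM hashtags and 18.2% to 38.5% in those of oil hashtags, where an oil hashtag had 13 to 24 such cells. In negative cells it was 22.9% to 28.9% and 22.7% to 26.7%. The positive share was below the negative one in Oil4 (18.2% against 24.8%) and Oil5 (25% against 25.1%) and above it in the other 8 hashtags. Thinning left out 37 oil and 47 TAM cells that had fewer than 2000 UMIs.

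Over all microglia-like cells, Ccng1 and Phlda3 were the members that separated tamoxifen from oil. Ccng1, 1 of the 7 members tested, rose in TAM hashtags, where 1.64% of all 11169 genes tested were higher. Of the 7, 5 had a log2 fold above 0, and the median was 0.29 against -1.91e-04 over all genes tested. Ccng1 was at 23.2, 25.8, 20.4, 24.5 and 24.1 CPM in Oil1 to Oil5 and at 33.7, 28.3, 32.2, 34.1 and 33.6 CPM in TAM1 to TAM5. Every TAM hashtag lay above every oil hashtag, which held for 2.21% of all genes tested. The means were 23.6 ± 2.02 and 32.4 ± 2.42 CPM (SD, n = 5 hashtags each), and the log2 fold was 0.46 ± 0.09 (SE; edgeR adjusted p 0.00697). Cdkn1a, at 22.0 ± 3.46 against 73.5 ± 36.2 CPM (SD), rose by 1.76 ± 0.28 on the log2 scale (SE; edgeR adjusted p 0.00433). That fold was 0.76 ± 0.35 with a covariate for the immediate early level, 0.73 ± 0.17 in male hashtags alone and 1.67 ± 0.43 without Oil1, Oil2 and Oil3 together (SE), and it passed in none of these (edgeR adjusted p 0.459, 0.0713 and 0.174). With the same covariate the Ccng1 fold was 0.39 ± 0.15 (SE) and did not pass (edgeR adjusted p 0.301), and without Oil1, Oil2 and Oil3 together it was 0.42 ± 0.12 (SE; edgeR adjusted p 0.204).

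Phlda3, the AKT restraint, was also higher in every TAM than in every oil hashtag. It was at 0.861, 0.933, 0.448, 0.520 and 0.498 CPM in Oil1 to Oil5, from 2 or 3 UMIs each. In TAM1 to TAM5 it was at 1.40, 1.35, 4.95, 10.0 and 4.23 CPM, from 6, 4, 24, 40 and 16 UMIs. The groups did not overlap, and the 3 highest were TAM3, TAM4 and TAM5. The mean rose from 0.652 ± 0.226 to 4.39 ± 3.55 CPM (SD, n = 5 each; exact two-sided permutation test, p 0.00794, the smallest that 252 regroupings can give). The ratio of the means was 6.74, and 4.57 without TAM4. In the fit without a filter the log2 fold was 2.76 ± 0.48 (SE; edgeR adjusted p 8.52e-05), with 1.72% of all genes higher, and without Oil1, Oil2 and Oil3 together it was 3.07 ± 0.93 (SE) and did not pass (edgeR adjusted p 0.244). Without the dividing state the means were 0.306 ± 0.202 and 2.92 ± 2.07 CPM (SD), and the groups still did not overlap. The share of 2.21% of genes with every TAM above every oil hashtag covers the genes that passed the filter, in all cells. Phlda3 is not among these genes. No such share was counted for genes below the filter or without the dividing state.

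The other members overlapped between the treatments. Trp53inp1 was at 26.4, 22.7, 20.2, 26.0 and 24.6 CPM in Oil1 to Oil5 and at 24.3, 20.2, 36.9, 33.6 and 32 CPM in TAM1 to TAM5. TAM3, TAM4 and TAM5 were thus above every oil hashtag and TAM1 and TAM2 within their range. The fold was 0.31 ± 0.14 on the log2 scale (SE; edgeR adjusted p 0.22).

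Aen was at 10.6, 13.4, 11, 12.7 and 16.4 CPM in oil and at 14.0, 16.1, 16.3, 19.3 and 19.1 CPM in TAM hashtags. Its fold of 0.40 ± 0.14 (SE) did not pass (edgeR adjusted p 0.120), and it was -0.02 with the immediate early covariate. Zmat3 averaged 7.72 ± 0.723 and 9.49 ± 1.56 CPM (SD; edgeR adjusted p 0.320), and Sesn2 5.99 ± 0.590 and 7.21 ± 1.05 CPM (SD; edgeR adjusted p 0.416).

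Mdm2 was at 72.1 ± 5.52 and 70.1 ± 4.93 CPM (SD; log2 fold -0.04 ± 0.07 SE; edgeR adjusted p 0.801). Trp53 was at 87.4 ± 3.92 and 80.2 ± 5.77 CPM (SD; log2 fold -0.13 ± 0.06 SE; edgeR adjusted p 0.246). Fas averaged 2.05 ± 0.385 and 1.71 ± 0.870 CPM (SD; exact permutation p 0.548). Eda2r, from 1 oil and 11 TAM UMIs of which 8 were in TAM4, gave an exact permutation p of 0.286.

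**Figure D4:**
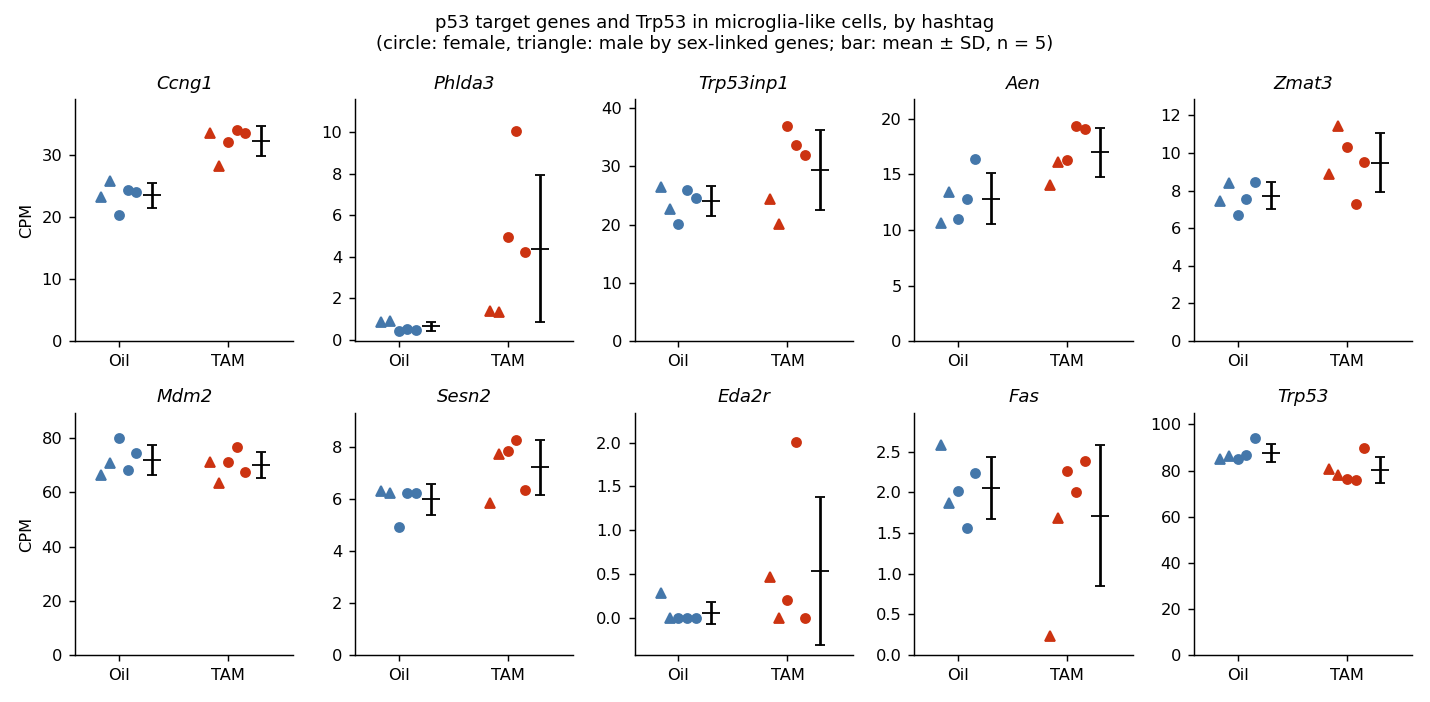
CPM (y axis) in the 5 oil and 5 TAM hashtags (x axis), circles for female and triangles for male hashtags, with mean ± SD. Ccng1 and Phlda3 do not overlap between the treatments; in Trp53inp1 and Phlda3 the 3 female TAM hashtags lie above the 2 male ones.

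The difference between treatments was also split into the sums of Cdkn1a-positive and negative cells. Positive cells numbered 205 in oil (4.65% to 6.11% of cells per hashtag) and 463 in TAM (6.69% to 16.8%). In plain CPM, unscaled between hashtags and averaged over the hashtags of each treatment, Ccng1 was 9.42 CPM higher in TAM. Of this, 5.84 CPM lay in positive cells. For Phlda3 it was 3.58 of 3.82 CPM, for Aen 2.96 of 4.49 CPM, for Zmat3 1.89 of 1.96 CPM and for Sesn2 1.32 of 1.38 CPM. Trp53inp1 was 6.07 CPM higher in TAM, and its positive cells alone contributed 6.42 CPM. The positive cells' part was also higher in TAM for Mdm2, by 8.58 CPM, and for Trp53, by 5.33 CPM, while the totals of these genes differed by -0.31 and -5.34 CPM. A larger number of positive cells and a higher level in each both enter these sums, so a positive part is not particular to any member.

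In cells without a Cdkn1a UMI, 0 of the 7 members tested passed between the treatments, where edgeR called 3.87% of all 10956 genes tested. Ccng1, 1 of the 7, had an unadjusted p under 0.05, where 2045 of all 10956 genes had one. The mean of Ccng1 went from 22.2 ± 1.30 CPM with oil to 27.2 ± 4.10 CPM with TAM (SD over 5 hashtags each; log2 fold 0.31 ± 0.11 SE; edgeR adjusted p 0.118). Trp53inp1 was at 23.3 ± 2.62 and 24.3 ± 3.89 CPM (SD; edgeR adjusted p 0.781), and Phlda3, from 2 oil and 7 TAM UMIs, at 0.108 ± 0.149 and 0.385 ± 0.243 CPM (SD). The median log2 fold of the 7 was 0.09, and that of all genes tested 0.01.

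**Figure D5:**
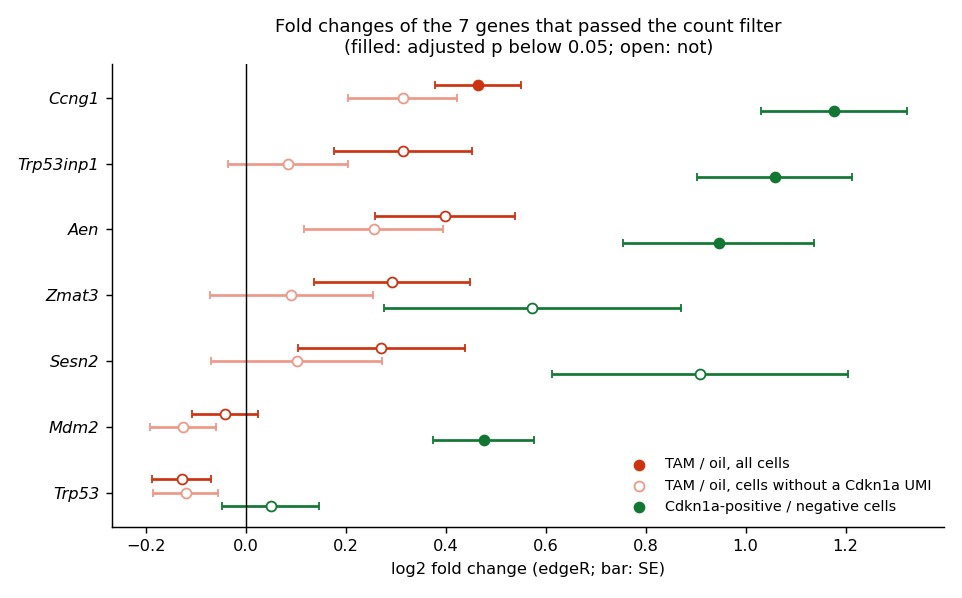
Log2 fold changes ± SE from edgeR (x axis) of the 7 members that passed the count filter (y axis), for TAM against oil in all cells, in cells without a Cdkn1a UMI, and for Cdkn1a-positive against negative cells; filled points have an adjusted p below 0.05. Ccng1 is filled in 2 comparisons, Trp53inp1, Aen and Mdm2 in the comparison of Cdkn1a status, and no point of the comparison in cells without a Cdkn1a UMI is filled.

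Whether the contrast between positive and negative cells differed with treatment was tested as an interaction. None of the 7 members passed (edgeR called 0.0471% of all genes), and 3 had an unadjusted p under 0.05. Of all 10614 genes tested, 643 had one. Phlda3 also passed the count filter of this fit and is not counted among the 7. Its log2 interaction was 0.215, with an SE larger than that value (edgeR adjusted p 0.993), so it is too imprecise to read. The interaction of Zmat3 was 1.85 ± 0.71 (log2, SE; edgeR adjusted p 0.733), that of Trp53inp1 0.75 ± 0.31 (SE; adjusted p 0.741) and that of Mdm2 0.45 ± 0.20 (SE; adjusted p 0.783), each larger in TAM. In non-dividing cells, Trp53inp1 was at 33.0 CPM in 195 positive and 22.9 CPM in 3530 negative oil cells, and at 68.3 CPM in 410 positive and 24.8 CPM in 3312 negative TAM cells. Ccng1 was at 42.4 and 21.8 CPM in oil, and at 61.3 and 27.6 CPM in TAM.

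The difference between treatments was also set against sex. None of the 7 members passed the interaction of treatment and sex (edgeR called 0.017% of all genes), and 1 had an unadjusted p under 0.05. Of all 11731 genes tested, 673 had one. The member was Trp53inp1, at -0.67 ± 0.21 (log2, male minus female, SE; edgeR adjusted p 0.731). Within this fit, 2 of the 7 rose in the female hashtags, where 2.41% of all genes were higher. The female folds were 0.54 ± 0.12 for Ccng1 and 0.55 ± 0.12 for Trp53inp1 (SE; edgeR adjusted p 0.00634 and 0.00889). In the male hashtags 0 of the 7 rose (0.128% of all genes were higher), with folds of 0.35 ± 0.15 and -0.13 ± 0.17 (SE; edgeR adjusted p 0.343 and 0.860) for the same genes. Ccng1 had an unadjusted p under 0.05 there, and the share of all genes with one was not counted. Phlda3 passed the count filter of this fit, in which the female TAM hashtags, where it is high, form a group of their own. It is therefore not counted, and its interaction was -3.02 ± 1.06 (SE; edgeR adjusted p 0.806). With 2 male hashtags per treatment the male folds are imprecise.

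Within single states the members were sparser. In cluster 1, the largest, 0 of the 7 members tested passed (edgeR called 0.316% of all genes), and Ccng1 and Aen had an unadjusted p under 0.05, with folds of 0.49 ± 0.17 and 0.67 ± 0.23 (log2, SE; edgeR adjusted p 0.297 and 0.298). Of all 9801 genes tested in cluster 1, 882 had an unadjusted p under 0.05. In cluster 0, 0 of the 5 tested passed (0.665% of all genes), and Ccng1, at 0.46 ± 0.17 (SE; edgeR adjusted p 0.293), and Trp53inp1, at 0.46 ± 0.22 (SE; edgeR adjusted p 0.522), had an unadjusted p under 0.05. Of all 9172 genes tested in cluster 0, 873 had one. In cluster 2, led by immediate early genes, neither Mdm2 nor Trp53, the 2 members tested, passed (0.0537% of all genes) or had an unadjusted p under 0.05. In the fits without a filter Phlda3 was higher in TAM in cluster 1, by 3.49 ± 0.91 (SE; edgeR adjusted p 0.0192; 0.488% of all genes higher), and in cluster 0, by 4.77 ± 1.11 (SE; edgeR adjusted p 0.00410; 0.347% of all genes higher). Over all hashtags it had 34 UMIs in 27 cells of cluster 1 and 17 UMIs in 11 cells of cluster 0. The size of these folds is therefore uncertain.

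Other genes of the pathway were taken from a list of 40 further p53 targets, Cdkn1a among them, of which 39 were in the gene table, and from 23 p53 regulators. Of the 29 other targets tested between treatments, 3, Cdkn1a among them, were higher in TAM and 1 lower, against 1.64% and 2.88% of all genes tested, with a median log2 fold of -0.02. Beside Cdkn1a, Pvt1, a long noncoding RNA, rose by 0.35 ± 0.08 and Sulf2, an extracellular sulfatase, by 0.71 ± 0.17 (SE; edgeR adjusted p 0.0156 and 0.0271). Btg2, a growth-inhibiting gene that is also an immediate early gene, fell by 1.65 on the log2 scale (SE 0.27; edgeR adjusted p 0.00459). Of the 18 regulators tested 0 passed.

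Between Cdkn1a-positive and negative cells, 9 of the 27 other targets tested rose and 0 fell, against 2.82% and 1.31% of all genes tested, with a median log2 difference of 0.20. The 4 with the smallest p were Bax, Bbc3, Rps27l and Pvt1. Bax and Bbc3 (PUMA), which promote the mitochondrial pathway of apoptosis, differed by 0.88 ± 0.10 and 1.71 ± 0.21 (SE; edgeR adjusted p 6.66e-11 and 3.20e-09). Rps27l, a ribosomal protein paralogue whose reads can be shared with related genes, differed by 0.76 ± 0.10 and Pvt1 by 0.69 ± 0.09 (SE; edgeR adjusted p 5.31e-09 and 1.72e-08). Of the regulators, 1 of 18 rose (2.82% of all genes), Mdm4, by 0.26 ± 0.08 (SE; edgeR adjusted p 0.0456). Without the dividing state, 6 of 26 other targets rose (0.722% of all genes), those 4 among them, and 0 of 18 regulators passed.

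Across the 10 hashtags, the genes whose level was most like that of Trp53, the member with the most UMIs, were Tpp1, 1600022D10Rik, Bag5, Siglech and Pld4, with Pearson correlations of log2 CPM of 0.914, 0.879, 0.877, 0.870 and 0.866 among 7088 genes with a mean of at least 20 CPM. They are given as a description, since all points come from the same pool and 2 treatments.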

How the data were processed

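Single-cell 3′ RNA and hashtag libraries of 1 pool were analysed. The deposited matrix holds raw UMI counts per gene or hashtag and cell barcode, with 9975 barcodes; the submitters' processing notes name Cell Ranger 7 and mm10. The members and gene lists were chosen with earlier results of these data known.

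Hashtags were assigned with Seurat 5.3.0 (HTODemux, positive quantile 0.99), giving 8055 single-hashtag barcodes, 1737 with several and 183 with none. Barcodes with several hashtags were left out, and doublets within a hashtag were not removed. Cells with at least 500 genes, 1000 UMIs and at most 10% mitochondrial UMIs were kept (7903) and clustered with scanpy 1.11.5 (2000 variable genes, 30 components, 15 neighbours, Leiden resolution 0.5) without the members, the other p53 genes, Cdkn1a and sex-linked genes. Of the 8 clusters, 6 were microglia-like by fixed markers (7528 cells); 2 stayed unnamed and out of the comparisons.

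Counts were summed per hashtag and tested with edgeR 4.0.16 (TMM scaling, filterByExpr, quasi-likelihood test, Benjamini-Hochberg adjustment over all genes tested, threshold 0.05). Cdkn1a was left out of the sums by Cdkn1a status, and the hashtag was a block there. CPM per hashtag use TMM library sizes of that comparison, so they differ slightly between comparisons. CPM per state or UMI class are plain sums per 1000000 UMIs. The split of the treatment difference by Cdkn1a status averages plain CPM over hashtags, without TMM. SE is the log2 fold divided by the root of the F statistic. Thinning drew 2000 UMIs per cell, and Cdkn1a status was then read from the thinned counts. Comparisons share hashtags and are not independent. At 2952865 to 4789044 UMIs per hashtag, a member with few UMIs is imprecise. The scripts were tested on simulated data. All 10 members are named whatever their values; of the other p53 genes, at most 4 each way with the smallest p past the threshold; and the 5 genes most correlated with the member with the most UMIs. Mdm4 was named after its value was seen. Alternatives covered scaling, DESeq2 1.42.0, filters, left-out hashtags, covariates, depth, hashtag quantile and cell sets; 2 were chosen after seeing the data.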

Additional observations from a re-analysis of the deposited data

Results flagged for a closer look

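Of 60 groups of 5 hashtags (10 members and 2 treatments, in all, Cdkn1a-positive and Cdkn1a-negative cells), 8 held a hashtag whose gap to the others was above the critical share of 0.71 of the range. Chance gives about 1 in 20 for independent, normally distributed values. The groups here share cells and Eda2r had few UMIs, so the 8 cannot be read against that rate. Eda2r in Oil1 was at 0.287 CPM in all cells and 0.311 CPM in Cdkn1a-negative cells, from 1 UMI, against 0 in the other oil hashtags. In TAM4 it was at 2.01 CPM in all cells (others at most 0.468) and 8.41 CPM in Cdkn1a-positive cells (others at most 1.16). Sesn2 in Oil3 was at 4.93 CPM in all cells (others 6.22 to 6.31) and 5.16 CPM in Cdkn1a-negative cells (others 6.09 to 6.28). Trp53 in Oil5 was at 94.3 CPM in all cells (others 84.9 to 86.9) and 98.6 CPM in Cdkn1a-negative cells (others 86.4 to 89.1).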

How the results depend on the processing

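Most results on the members kept direction and side of the threshold: 154 of 163 values between treatments, 126 of 143 by Cdkn1a status and 91 of 91 in Cdkn1a-negative cells. The call of Ccng1 between treatments held in 10 of 10 fits that left out 1 hashtag (log2 fold 0.41 to 0.50), and was lost with the immediate early covariate, without Oil1, Oil2 and Oil3 together, and in male hashtags alone. Aen passed between treatments without Oil5 (0.51, edgeR adjusted p 0.0479). The causes were not tested. None of the 4 members called by Cdkn1a status passed in oil hashtags alone, where there were 205 positive cells. Low UMI numbers limit Eda2r, Fas and Phlda3.

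The number of genes called between treatments was 505, and became 832 with no filter, 7 without Oil1, Oil2 and Oil3 together, 868 with sex as a covariate, 82 with the immediate early covariate, 122 in male hashtags alone, 207 without the immediate early state, and 248 (without Oil3) to 646 (without TAM1) when 1 hashtag was left out. With the hashtag number as a block it was 871. Same-numbered oil and TAM hashtags were of the same sex. Their deviations correlated by 0.333, 0.167, 0.0555, 0.129 and 0.12, and 3 of 5 numbers correlated best with their own. These values do not settle whether the numbers pair the hashtags, and the main fit did not use them as pairs. By Cdkn1a status it was 412, and 961 with no filter, 264 with DESeq2, 63 thinned, 89 without the dividing state, 12 with both of these (chosen after seeing the data), 25 in oil hashtags alone, and 236 (without TAM4) to 482 with 1 hashtag left out; with no replicate block it was 302. In Cdkn1a-negative cells it was 424, 721 with no filter and 160 (without Oil3) to 522. In clusters 0, 1 and 2 it was 61, 31 and 3; with no filter 155, 186 and 27; with 1 hashtag left out 28 to 109, 3 to 100 and 0 to 7. For the interaction with sex it was 2, 73 with no filter and 0 to 6; for that with Cdkn1a status 5, 17 with no filter and 2 to 13.

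Directions that reversed were of values that had not passed. By Cdkn1a status, Trp53 was -0.018 with no filter and Zmat3 -0.83 in oil hashtags alone. Between treatments, Aen was -0.017 with the immediate early covariate and Trp53inp1 -0.12 in male hashtags alone; Mdm2 in cluster 1 was 0.0012 with no filter. With 1 hashtag left out, Mdm2 ranged from -0.074 to 0.0024 between treatments, from -0.064 to 0.057 in cluster 1 and from -0.40 to 0.30 in cluster 2. Trp53 ranged from -0.040 to 0.11 in cluster 1, and Trp53inp1 from -0.065 to 0.0065 in cluster 2. The interaction with sex ranged from -0.29 to 0.052 for Aen, -0.055 to 0.11 for Mdm2, -0.016 to 0.12 for Trp53 and -0.10 to 0.26 for Zmat3. That with Cdkn1a status ranged from -0.37 to 0.69 for Phlda3 and -0.11 to 0.13 for Trp53.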
